A study of Mus musculus with 7 samples.

Results

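The T cell receptor variable segments made up 86 of the 28233 genes listed in RNA from 7 mouse tumours. Members were all symbols beginning with Trav, Trbv, Trdv or Trgv whose level was above 0 TPM in at least 1 tumour. TPM is the abundance of a transcript per length, relative to all transcripts of the same tumour. The alpha chain segments (Trav) gave 61 members, the beta chain segments (Trbv) 19, and the delta (Trdv) and gamma (Trgv) chain segments 3 each. The rule also covered the joining segments Traj and Trbj but matched 0 symbols of either kind, so joining segments were not analysed here.

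All 7 tumours were subcutaneous implants of B16mhgp100, a line of the B16 mouse melanoma, in C57BL/6 mice. The line over-expressed Cr1l, a membrane regulator of complement, in 4 tumours (Cr1l 1 to Cr1l 4) and carried the vector in 3 (Vec 5, Vec 6 and Vec 7). Mice of both groups were given 200 µg doses of an antibody to the T cell inhibitory receptor PD-1, beginning on day 10, 2 per week up to 4 doses, and tumours were collected 1 day after the last. Tumours without the antibody were not analysed here, so every value below is a value under treatment, and the comparison asks whether receptor segment use differed between Cr1l and vector tumours. The labels do not say whether either cell population was 1 clone. In the titles of Vec 6 and Vec 7, but not of Vec 5, stands an extra number of unknown meaning. Cr1l itself was at 76.37 to 83.57 TPM in the Cr1l group and 46.29 to 54.94 TPM across the Vec tumours, without overlap. The summed level of 6 melanocyte markers was lowest in Cr1l 3 (8747 TPM) and Cr1l 4 (10030 TPM) and 12754 to 19752 TPM in the other 5 tumours. The labels name separate tumours and do not say that each came from its own mouse, so p-values measure the spread between these samples. The number of reads per tumour is unknown, and a level of 0 TPM means that a segment was not detected at an unknown depth.

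A T cell builds each receptor chain by joining 1 of many variable segments to a joining segment, with a diversity segment in between for the beta and delta chains. The junction, called CDR3, differs between clones, so the number of variable segments in use is a coarse sign of how many T cell clones a tissue holds, and a clone that has expanded weighs on the segment it carries. Alpha and beta chains form the receptor of conventional CD4 and CD8 T cells, while gamma and delta chains form that of a smaller lineage found in skin and other barrier tissues.

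All 86 members matched a variable segment gene of the GENCODE M21 annotation (build GRCm38), 3 of them through a RefSeq synonym. The annotation places the Trav and Trdv segments on chromosome 14, the Trbv segments on chromosome 6 and the Trgv segments on chromosome 13, and lists 109 Trav, 22 Trbv, 5 Trdv and 7 Trgv variable genes. The last 240 bases of the coding sequence of 4 members that recur in the results are printed 5′ to 3′ from the same annotation. Capitals mark the run from the last in-frame TGT or TGC codon, which encodes the conserved cysteine, to the end of the segment: this is the germline part of CDR3, to which the joining step adds. Trdv4 is shown because its levels did not overlap between groups, Trbv19 because it was above 0 in more tumours than any other member, Trbv13-3 because it reached the highest level of any member in a tumour, and Trav4-4-dv10 because it had the highest mean.
Trdv4: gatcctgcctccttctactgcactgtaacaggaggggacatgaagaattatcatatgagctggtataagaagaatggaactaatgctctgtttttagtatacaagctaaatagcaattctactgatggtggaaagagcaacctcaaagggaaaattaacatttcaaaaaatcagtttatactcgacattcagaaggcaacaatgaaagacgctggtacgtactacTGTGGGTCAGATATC
Trbv19: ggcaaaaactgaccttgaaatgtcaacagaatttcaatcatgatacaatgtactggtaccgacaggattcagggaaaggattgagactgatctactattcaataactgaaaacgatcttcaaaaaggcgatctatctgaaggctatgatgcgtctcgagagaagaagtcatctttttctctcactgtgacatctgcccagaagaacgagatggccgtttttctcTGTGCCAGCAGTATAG
Trbv13-3: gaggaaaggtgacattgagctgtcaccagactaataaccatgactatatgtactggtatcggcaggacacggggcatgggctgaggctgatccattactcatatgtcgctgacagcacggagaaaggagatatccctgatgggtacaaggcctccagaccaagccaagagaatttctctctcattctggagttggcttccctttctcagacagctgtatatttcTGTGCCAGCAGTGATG
Trav4-4-dv10: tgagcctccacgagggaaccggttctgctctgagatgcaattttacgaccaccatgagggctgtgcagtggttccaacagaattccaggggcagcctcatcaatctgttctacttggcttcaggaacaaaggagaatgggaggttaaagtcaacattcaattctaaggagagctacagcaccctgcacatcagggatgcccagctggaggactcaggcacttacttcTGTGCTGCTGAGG

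Many alpha segments exist in near-identical copies, because a stretch of the alpha locus of C57BL/6 mice is duplicated. Copies carry d or n in the symbol, as 32 members did. A coding sequence identical to that of another variable gene was found for 21 of the 61 Trav members, and 33 had another at least 98% identical, against 0 members of the Trbv, Trdv and Trgv classes. In 13 pairs of members, 26 in all, both had the same TPM in every tumour, and in 10 of these pairs the coding sequences were identical. The remaining pairs were Trav6d-7 and Trav6n-7 (96.6% identical), Trav7-5 and Trav9d-1 (56.1%), and Trav7d-6 and Trbv21 (51.0%). Equal TPM alone therefore does not mark a copy. An example of an identical pair is Trav13d-2 and Trav13n-2, both at 1.38 TPM in Cr1l 3 and 0 elsewhere. Their shared sequence differs from that of Trav13-2, which stood at 1 TPM in Cr1l 3 and 1.34 TPM in Cr1l 4, at 11 of 331 bases. The last 260 bases hold 10 of these differences, in capitals here.
Trav13d-2: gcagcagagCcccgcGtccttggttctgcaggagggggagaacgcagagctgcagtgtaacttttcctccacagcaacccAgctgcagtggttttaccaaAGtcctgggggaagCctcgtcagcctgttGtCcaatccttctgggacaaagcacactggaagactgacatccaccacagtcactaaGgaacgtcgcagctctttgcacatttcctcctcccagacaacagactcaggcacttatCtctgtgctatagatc
Trav13-2: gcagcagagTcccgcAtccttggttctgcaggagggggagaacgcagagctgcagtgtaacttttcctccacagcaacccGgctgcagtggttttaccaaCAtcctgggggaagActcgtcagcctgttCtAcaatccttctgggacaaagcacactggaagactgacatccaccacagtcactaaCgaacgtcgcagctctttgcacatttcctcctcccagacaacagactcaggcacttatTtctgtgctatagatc
Levels of such copies are uncertain 1 by 1, since how reads were divided between them was not stated. The same holds across strands, because the libraries did not keep strand.

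Levels were low throughout. Of the 602 values, 86 members in 7 tumours, 160 were above 0. These had a median of 0.965 TPM and ran from 0.11 TPM to 6.81 TPM. In the authors' deposited table, made separately, the mean normalized count over the tumours was at most 2.95 for a member, the median member had 0.337, and 68 members were under 1. That table lists 12 members at a mean count of 0 although their TPM was above 0, and all 12 belonged to the pairs of equal TPM.

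**Figure D1:**
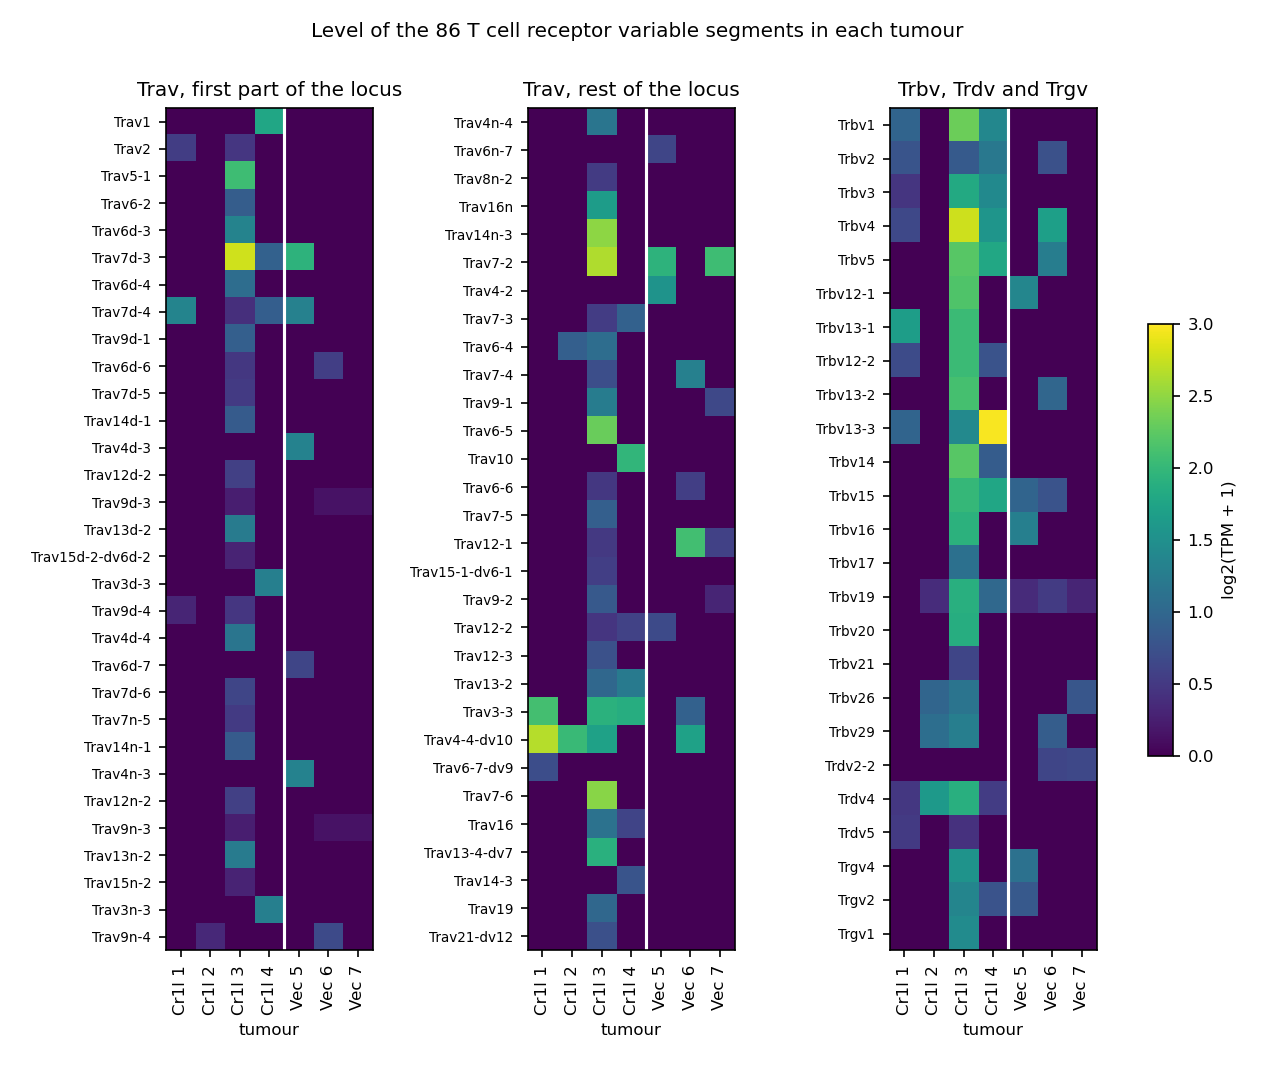
Level of each of the 86 variable segments (rows, in locus order within each chain) in each tumour (columns), as log2(TPM + 1) by colour, with a white line between the Cr1l and Vec tumours. Cr1l 3 has 73 of 86 segments above 0, and the other columns are mostly empty.

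The tumours differed widely in how many segments they held. Cr1l 3 had 73 of the 86 members above 0 TPM, Cr1l 4 had 24, Vec 6 had 17, Cr1l 1 and Vec 5 had 15 each, Vec 7 had 9 and Cr1l 2 had 7. Members seen in a lone tumour numbered 44, and 33 of them were in Cr1l 3, 5 in Cr1l 4, 5 in Vec 5 and 1 in Cr1l 1. A further 20 members were above 0 in 2 tumours, 14 in 3 and 7 in 4, while 1 (Trbv19) was above 0 in 6 and 0 members in all 7. Cr1l 3 thus held most segments seen anywhere, and the other 6 tumours held between 7 and 24 each. In bulk tumours, fewer T cells and less receptor RNA per cell cannot be told apart, here and in all levels that follow. Leaving Cr1l 3 aside, 53 members were above 0 in at least 1 of the other 6 tumours and 24 in at least 2.

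By group, 27 members were above 0 in both, 53 in Cr1l tumours alone and 6 in Vec tumours alone. A level above 0 in 1 tumour was enough for membership, and 33 of the 53 were above 0 in Cr1l 3 alone. The groups also differ in size, and the share over all genes is not given here, so nothing is read from these counts. Without Cr1l 3 these numbers were 14, 20 and 19 of the 53 remaining members. The number of members above 0 was 29.8 ± 29.7 (SD, n = 4) in Cr1l tumours and 13.7 ± 4.16 (SD, n = 3) in Vec tumours, a difference of 16.1 (exact permutation test over 35 splits, two-sided, p = 0.629, adjusted p = 0.857 over 5 counts). The groups overlapped, and without Cr1l 3 the difference was 1.67. The smallest p that 4 against 3 tumours allow is 0.0286.

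Alpha chain segments were the largest class. Summed over the 61 members, Trav reached 11.55, 4.22, 65.25 and 16.68 TPM across Cr1l 1 to Cr1l 4, against 13.75, 9.69 and 4.73 TPM across Vec 5 to Vec 7. Cr1l 3 alone carried 51.8% of the Trav TPM of the 7 tumours, while the other 3 Cr1l tumours spanned the range of the Vec tumours. On the log2(sum + 1) scale the Cr1l mean was 0.78 higher (4.06 ± 1.52, n = 4, against 3.27 ± 0.69, n = 3, SD; exact permutation test, two-sided, p = 0.457, adjusted p = 0.610 over 4 classes), and 0.12 higher without Cr1l 3.

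The number of Trav segments above 0 was 6, 3, 49 and 12 across Cr1l 1 to Cr1l 4, against 9, 9 and 6 across Vec 5 to Vec 7. Cr1l 3 held 49 of the 61, and 29 of the 61 were seen in Cr1l 3 alone. The other 6 tumours held 32 Trav segments between them, of which 20 were also in Cr1l 3. The group difference of 9.5 segments (17.5 ± 21.3, n = 4, against 8 ± 1.73, n = 3, SD; exact permutation p = 0.857, adjusted p = 0.857) turned to -1 without Cr1l 3. Counted as families, which takes copies together, the tumours held 6, 3, 15 and 8 Trav families in the Cr1l group and 4, 6 and 3 in the Vec group, a difference of 3.67 (exact permutation p = 0.371).

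Which Trav segment led differed from tumour to tumour. Trav4-4-dv10, printed above and usable by alpha and delta chains as its dv name says, was at 5.34, 3.08, 2.29 and 0 TPM across Cr1l 1 to Cr1l 4, against 0, 2.3 and 0 TPM across Vec 5 to Vec 7. It made up 46.2% of the Trav TPM of Cr1l 1 and 73% of that of Cr1l 2. Shares here and below rest on low counts: the mean normalized count of Trav4-4-dv10 was 2.14 in the authors' deposited table. Its groups overlapped, with 3 of 4 Cr1l tumours and 1 of 3 Vec tumours above 0.

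Trav7-2 stood at 5.26 TPM in Cr1l 3, 2.83 in Vec 5, 3.21 in Vec 7 and 0 in the other 4 tumours, and was 67.9% of the Trav TPM of Vec 7. Trav7d-3, 88.1% identical to it, stood at 5.87 TPM in Cr1l 3, 0.91 in Cr1l 4, 2.83 in Vec 5 and 0 elsewhere. Trav7-2 and Trav7d-3 had the same level in Vec 5, where each made up 20.6% of the Trav TPM. Each has a closer copy: Trav7d-2 is 99.7% identical to Trav7-2, and Trav7-3 is 99.4% identical to Trav7d-3. Trav7-3 was at 0.45 TPM in Cr1l 3, 0.91 TPM in Cr1l 4 and 0 elsewhere. The levels of these segments are thus uncertain 1 by 1. In Cr1l 3 the leading segment, Trav7d-3, made up only 9% of the total, so use there was spread over many segments.

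Trav3-3 was at 3.31, 0, 2.78 and 2.66 TPM across the Cr1l tumours, against 0, 0.91 and 0 TPM across the Vec tumours. It was higher in 3 Cr1l tumours than in any Vec tumour, with Cr1l 2 at 0. Trav12-1 led in Vec 6 with 3.26 TPM (33.6% of its Trav TPM) and was at 0.49 TPM in Vec 7 and 0.41 TPM in Cr1l 3. Trav10 (2.94 TPM) and Trav1 (2.41 TPM) were above 0 in Cr1l 4 alone, where Trav10 led with 17.6% of the Trav TPM. Trav1 is the alpha segment of mucosal-associated invariant T cells, whose receptor joins it to Traj33.

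By family, Trav7 with 10 members had the highest mean, 5.05 TPM, and was above 0 in 6 of 7 tumours: 1.56, 0, 19.31 and 2.68 TPM across Cr1l 1 to Cr1l 4, against 7.15, 1.47 and 3.21 TPM across Vec 5 to Vec 7. The Trav4 family, mean 2.92 TPM, was at 5.34, 3.08, 4.77 and 0 TPM across the Cr1l tumours, against 4.93, 2.3 and 0 TPM across the Vec tumours. The Trav6 family with 10 members was at 9.39 TPM in Cr1l 3 and at most 1.08 TPM in any other tumour. The groups overlapped in all 3 families.

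The effective number of Trav segments, the exponential of the Shannon entropy of their TPM shares, counts segments weighted by evenness. It was 3.87, 2.08, 32.2 and 10.2 across Cr1l 1 to Cr1l 4, against 7.69, 5.94 and 2.94 across Vec 5 to Vec 7. Cr1l 3 and Cr1l 4 were the 2 highest, and Cr1l 2 was the lowest of all. The difference of 6.58 (exact permutation p = 0.657, adjusted p = 0.657 over 2 classes) turned to -0.13 without Cr1l 3 and was 1.91 by families.

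Beta chain segments were fewer, and all 19 were found in Cr1l 3. Summed over the 19 members, Trbv was at 6.38, 2.39, 50.77 and 20.84 TPM across Cr1l 1 to Cr1l 4, against 4.29, 7.28 and 0.99 TPM across Vec 5 to Vec 7. Cr1l 3 and Cr1l 4 were above every Vec tumour, Cr1l 1 and Cr1l 2 lay within the Vec range, and Cr1l 3 carried 54.6% of the total. The Cr1l mean was 1.55 higher on the log2(sum + 1) scale (3.70 ± 1.73, n = 4, against 2.15 ± 1.05, n = 3, SD; exact permutation test, two-sided, p = 0.257, adjusted p = 0.514), and 0.88 higher without Cr1l 3.

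**Figure D2:**
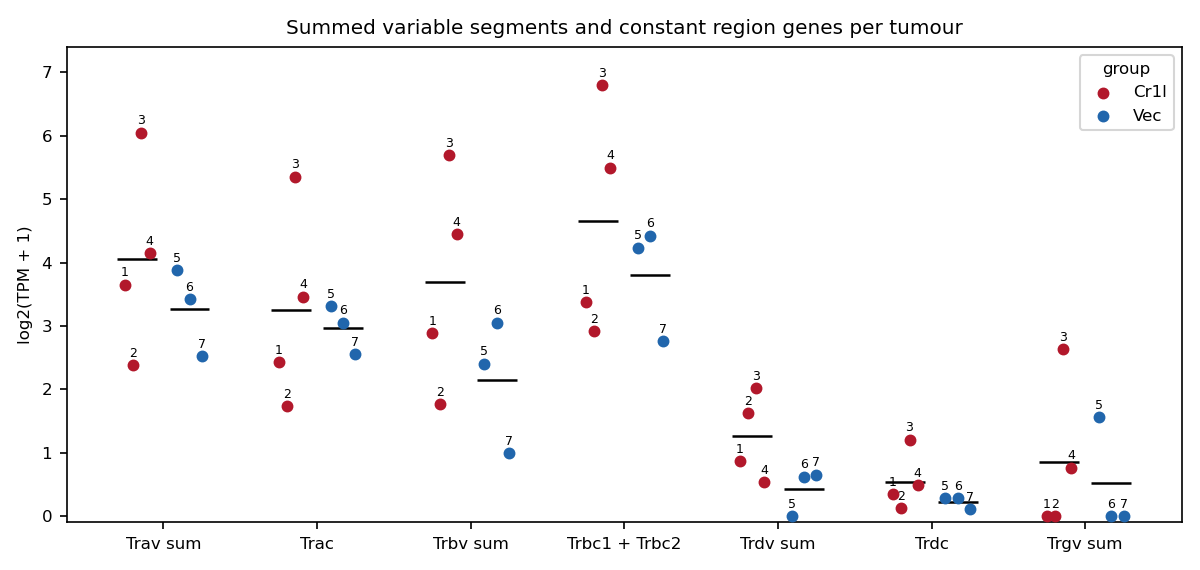
Summed TPM of the Trav, Trbv, Trdv and Trgv segments and TPM of the alpha, beta and delta constant region genes, on a log2(TPM + 1) axis. Each tumour is a point labelled by its number, with a bar at each group mean, and gamma constant region genes are not drawn. Cr1l 3 is the highest tumour in every column, and the groups overlap in every column.

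The number of Trbv segments above 0 was 7, 3, 19 and 10 across Cr1l 1 to Cr1l 4, against 4, 7 and 2 across Vec 5 to Vec 7. The difference was 5.42 segments (9.75 ± 6.80, n = 4, against 4.33 ± 2.52, n = 3, SD; exact permutation p = 0.286, adjusted p = 0.714), and 2.33 without Cr1l 3. Of the 19 segments, 10 were above 0 in both groups and 9 in Cr1l tumours alone, of which 3 were in Cr1l 3 alone. In Cr1l 3, 17 of the 19 had their highest level. The effective number was 6, 2.67, 16.9 and 7.82 across the Cr1l tumours, against 3.49, 6.13 and 1.74 across the Vec tumours, a difference of 4.55 (exact permutation p = 0.286, adjusted p = 0.571), and 1.71 without Cr1l 3.

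Trbv19, a beta segment also used by mucosal-associated invariant T cells, was the most widely found member. It was at 0, 0.3, 2.72 and 1.02 TPM across Cr1l 1 to Cr1l 4, against 0.29, 0.43 and 0.24 TPM across Vec 5 to Vec 7. Cr1l 3 and Cr1l 4 were above all Vec tumours, whose 3 values lay close together, and Cr1l 1 had none.

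The Trbv13 segments, common among conventional T cells and among invariant NKT cells, were split by tumour. Trbv13-3 was at 0.96, 0, 1.67 and 6.81 TPM across the Cr1l tumours, against 0 in all Vec tumours, and the 6.81 TPM in Cr1l 4 was 32.7% of its Trbv TPM. Trbv13-1 was at 2.18 TPM in Cr1l 1 (34.2%), 3.11 TPM in Cr1l 3 and 0 elsewhere. Trbv13-2 was at 3.34 TPM in Cr1l 3, 0.98 TPM in Vec 6 and 0 elsewhere. Between 85.3% and 90.6% of the bases of these 3 segments are the same, pair by pair, so they are less alike than the alpha copies.

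Trbv4 was at 0.57, 0, 5.82 and 1.96 TPM across the Cr1l tumours, against 0, 2.24 and 0 TPM across the Vec tumours. It led in Cr1l 3 with 11.5% of the Trbv TPM and in Vec 6 with 30.8%. Its group values overlapped, as did those of its neighbours in level: Trbv5 was at 3.66 TPM in Cr1l 3, 2.48 in Cr1l 4 and 1.42 in Vec 6, and Trbv15 at 2.99 TPM in Cr1l 3, 2.43 in Cr1l 4, 0.95 in Vec 5 and 0.7 in Vec 6.

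The remaining tumours were each led by another segment. Trbv29 made up 46.9% of the Trbv TPM of Cr1l 2 (1.12 TPM), Trbv12-1 37.1% of that of Vec 5 (1.59 TPM) and Trbv26 75.8% of that of Vec 7 (0.75 TPM). The mean normalized count of Trbv26 was 0.529 in the authors' deposited table. Trbv1 was at 0.96, 0, 4.03 and 1.62 TPM across the Cr1l tumours, against 0 across the Vec tumours. Trbv1 and Trbv13-3 were thus above 0 in the same 3 Cr1l tumours, with Cr1l 2 tied with the Vec tumours at 0.

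**Figure D3:**
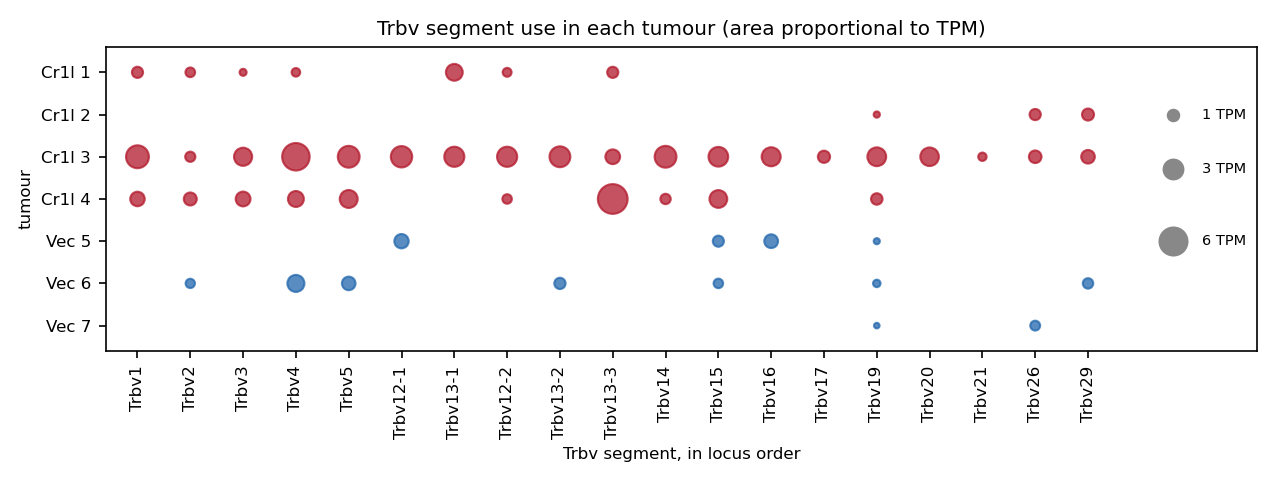
Use of the 19 Trbv segments (horizontal axis, in locus order) in each tumour (vertical axis), with the area of each circle proportional to TPM (red, Cr1l; blue, Vec). All 19 are present in Cr1l 3, the largest circle is Trbv13-3 in Cr1l 4 (6.81 TPM), and Vec 7 has 2 small circles.

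Delta chain segments held the only member whose groups did not overlap. Trdv4, the delta segment carried by dendritic epidermal T cells of mouse skin, was at 0.4, 2.09, 2.71 and 0.45 TPM across Cr1l 1 to Cr1l 4, against 0 TPM in Vec 5, Vec 6 and Vec 7. It was above 0 in 4 of 4 Cr1l tumours and 0 of 3 Vec tumours, and its highest levels were in Cr1l 3 and in Cr1l 2, the tumour with the fewest segments. This was 1 of 86 members with Cr1l higher without overlap, when 6.69% of all listed genes were so, and 0 of 86 with Vec higher, when 4.69% were. The share among the members was below the background, so nothing is read from the count. Trgv5, Trgv6 and Trgv7, gamma segments sought as parts of invariant or skin-resident receptors, were not listed. Cr1l 1 and Cr1l 2, where Trdv4 was above 0, had no gamma chain segment above 0. Gamma constant region genes were detected in both. Trgc1 was at 0.21 TPM and Trgc4 at 0.19 TPM in Cr1l 1, and both were at 0 in Cr1l 2. Trgc2 was at 0 in Cr1l 1 and 0.53 TPM in Cr1l 2, against 1.27, 0.87 and 1.07 TPM across Vec 5 to Vec 7. Whether dendritic epidermal T cells were present was not tested.

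Trdv2-2 went the other way, at 0.54 TPM in Vec 6, 0.57 TPM in Vec 7 and 0 in the other 5 tumours. Trdv5 was at 0.42 TPM in Cr1l 1, 0.35 TPM in Cr1l 3 and 0 elsewhere. The summed Trdv level was 0.82, 2.09, 3.06 and 0.45 TPM across the Cr1l tumours, against 0, 0.54 and 0.57 TPM across the Vec tumours, a difference of 0.84 on the log2(sum + 1) scale (exact permutation test, two-sided, p = 0.2, adjusted p = 0.514). The groups overlapped through Cr1l 4.

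Trdc, the constant region of the delta chain, was not in the order of Trdv4. It was at 0.27, 0.09, 1.31 and 0.4 TPM across Cr1l 1 to Cr1l 4, against 0.22, 0.22 and 0.08 TPM across Vec 5 to Vec 7. Cr1l 2, with Trdv4 at 2.09 TPM, had Trdc at 0.09 TPM, within the Vec range. In the authors' deposited table Trdv4 had the smallest p of the members (unadjusted p = 0.0547) and no adjusted p.

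Gamma chain segments were not detected in 4 tumours. Trgv2 was at 1.58 TPM in Cr1l 3, 0.7 in Cr1l 4 and 0.79 in Vec 5. Trgv4 was at 1.9 TPM in Cr1l 3 and 1.17 in Vec 5, and Trgv1 at 1.73 TPM in Cr1l 3 alone. The summed level was thus above 0 in Cr1l 3 (5.21 TPM), Cr1l 4 (0.7 TPM) and Vec 5 (1.96 TPM) and at 0 in the other 4 tumours, and the groups overlapped (difference 0.33 on the log2 scale, exact permutation p = 0.714, adjusted p = 0.714). Without Cr1l 3 that difference was -0.27.

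Only 8 members reached the mean of 1 TPM set for the test across genes, and that choice favours segments high in Cr1l 3. With limma on log2(TPM + 1) over 14954 genes, 0 of the 8 passed an adjusted p of 0.05, when 0.0134% of all genes tested did. At an unadjusted p under 0.05 the count was also 0 of 8, against 15.6% of all genes. The smallest adjusted p was that of Trbv13-3, listed at 0 in all Vec tumours (limma adjusted p = 0.353). Next came Trav3-3, with a difference of 1.16 on the log2(TPM + 1) scale (SE 0.57, limma adjusted p = 0.357), and Trav4-4-dv10 with 1.03 (limma adjusted p = 0.484). Trbv4 (0.68), Trbv5 (0.58), Trbv15 (0.37) and Trav7d-3 (0.28) had smaller positive differences, and Trav7-2 was lower in the Cr1l tumours by value (-0.68), with limma adjusted p from 0.651 to 0.875 for these 5. Differences were positive for 7 of the 8, with a median of 0.63 beside 0.05 over all genes tested, given here as a description. Without Cr1l 3 the median of the 8 was 0.17, Trbv4 was at 0.17, Trbv5 at 0.17 and Trbv15 at 0.016, and Trav7d-3 turned to -0.33.

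With no filter on low values, limma tested all 86 members among 28233 genes. An adjusted p under 0.05 was found for 0 members, with 0% of genes called, and an unadjusted one for 3, against 11.0% of all genes. The 3 were Trdv4 (limma unadjusted p = 0.0195, adjusted p = 0.388) and Trbv1 (unadjusted p = 0.0484), both listed at 0 in all Vec tumours, and Trdv2-2 (unadjusted p = 0.0290, adjusted p = 0.411), listed at 0 in the Cr1l tumours. The authors' deposited table gave an adjusted p to 0 of the 86 members, when 7.02% of the 18297 genes with an adjusted p were under 0.05. It gave an unadjusted p to 74 members, of which 0 were under 0.05, against 14.5% of all genes with a p.

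The constant region genes and other parts of the receptor, from a list of 27 genes, were also highest in Cr1l 3 in most cases. Trac, the alpha constant region, was at 4.4, 2.32, 39.9 and 10 TPM across Cr1l 1 to Cr1l 4, against 8.95, 7.29 and 4.86 TPM across Vec 5 to Vec 7. The beta constant regions Trbc1 and Trbc2 together were at 9.39, 6.55, 110.3 and 44.22 TPM across the Cr1l tumours, against 17.84, 20.45 and 5.79 TPM across the Vec tumours. Cr1l 3 was highest in both, and Cr1l 1 and Cr1l 2 lay within or below the Vec range.

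Set against the constant regions, the segment sums varied less between tumours. The Trav sum per Trac TPM was 2.62, 1.82, 1.64 and 1.67 across the Cr1l tumours, against 1.54, 1.33 and 0.973 across the Vec tumours. The Trbv sum per Trbc1 plus Trbc2 TPM was 0.679, 0.365, 0.46 and 0.471 across the Cr1l tumours, against 0.24, 0.356 and 0.171 across the Vec tumours. By both ratios each Cr1l tumour stood above each Vec tumour, for the beta chain by a narrow margin (0.365 in Cr1l 2 against 0.356 in Vec 6). Cr1l 1 and Cr1l 2 had the highest alpha ratios. A lone segment, Trav4-4-dv10, made up 46.2% of the Trav TPM of Cr1l 1 and 73% of that of Cr1l 2. That segment can also be used by delta chains, and its part in the alpha ratios was not tested. The ratios were looked at after other values had been seen and have no test. The share of such separations among other ratios is not given, so nothing is read from them.

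Of the 27 genes 24 were listed and 19 tested, and limma called 0 higher and 0 lower. Their differences were positive in 19 of 19, with a median of 0.48 beside 0.05 over all genes tested. Of the 24, 22 had their highest level in Cr1l 3. The shares of all genes that were positive or highest in Cr1l 3 are not given here. Differences of these genes without Cr1l 3 are not given either, so nothing is read from the counts. Cd3e, a signalling chain of the receptor complex, was at 3.03, 1.1, 20.67 and 7.39 TPM across the Cr1l tumours, against 3.33, 3.66 and 1.83 TPM across the Vec tumours. Cd4, the helper coreceptor, was at 1.43, 1.8, 18.02 and 5.91 TPM and at 1.59, 1.52 and 0.33 TPM (log2 difference 1.41, limma adjusted p = 0.367). Cd8a, the cytotoxic coreceptor, was at 1.54, 1.01, 18.38 and 7.36 TPM and at 4.04, 4.44 and 1.86 TPM. Lcp2, an adaptor downstream of the receptor, had the largest difference of the list (1.70, limma adjusted p = 0.317) and was the 1 gene with an unadjusted p under 0.05. The groups of all 24 genes overlapped.

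Markers of T cells, summed over 10 of 10 listed genes, ran from 18.45 to 207.8 TPM in Cr1l tumours and from 19.59 to 42.3 TPM in Vec tumours, with all 10 highest in Cr1l 3. Markers of NK cells (5 of 5 listed) ran from 2.58 to 28.56 TPM and from 1.82 to 2.35 TPM, with Ncr1 at 0 in Vec 5 and Vec 6. Macrophage markers (5 of 5) ran from 193.7 to 1854 TPM and from 173.1 to 513.8 TPM, with Cr1l 3 and Cr1l 4 the highest. Gamma delta T cell markers (8 of 9) ran from 1.96 to 22.23 TPM and from 1.88 to 2.73 TPM. Of the invariant NKT cell list 2 of 4 genes were listed, with a summed level of 0.82 to 8.04 TPM and of 0.86 to 5.54 TPM. Among them Zbtb16, a transcription factor of these cells, was highest in Vec 6 (5.14 TPM) and Vec 5 (4.34 TPM) and at 0.16 to 1.38 TPM in the other 5 tumours. The other gene, Klrb1c, which is also on the NK cell list, had another order. It was at 0.66, 0.72, 6.66 and 3.05 TPM across Cr1l 1 to Cr1l 4, against 0.65, 0.4 and 0.17 TPM across Vec 5 to Vec 7. B cell markers (5 of 5) ran from 2.32 to 10.42 TPM and from 1.1 to 2.5 TPM. Of the 3 thymocyte markers listed, Dntt was at most 0.27 TPM and Ptcra at most 0.3 TPM, while Cd1d1, which other cells also express, was at 2.7 to 18.31 TPM. The part of these cells in the segment levels was not tested.

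The authors' repertoire table, made from the same libraries, counts T cell receptor clonotypes (distinct rearranged receptors) and what it names clones, for the alpha (TRA) and beta (TRB) chains. TRA clonotypes numbered 12, 5, 81 and 17 across Cr1l 1 to Cr1l 4, against 16, 6 and 4 across Vec 5 to Vec 7. TRB clonotypes numbered 11, 14, 119 and 26 across the Cr1l tumours, against 21, 10 and 8 across the Vec tumours. Cr1l 3 was highest for both chains, and the other tumours of both groups overlapped. On the log2(number + 1) scale the Cr1l means were 1.13 higher for TRA (exact permutation p = 0.371, adjusted p = 0.495 over 8 measures) and 1.09 higher for TRB (exact permutation p = 0.314, adjusted p = 0.495). Without Cr1l 3 the differences were 0.41 and 0.39.

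**Figure D4:**
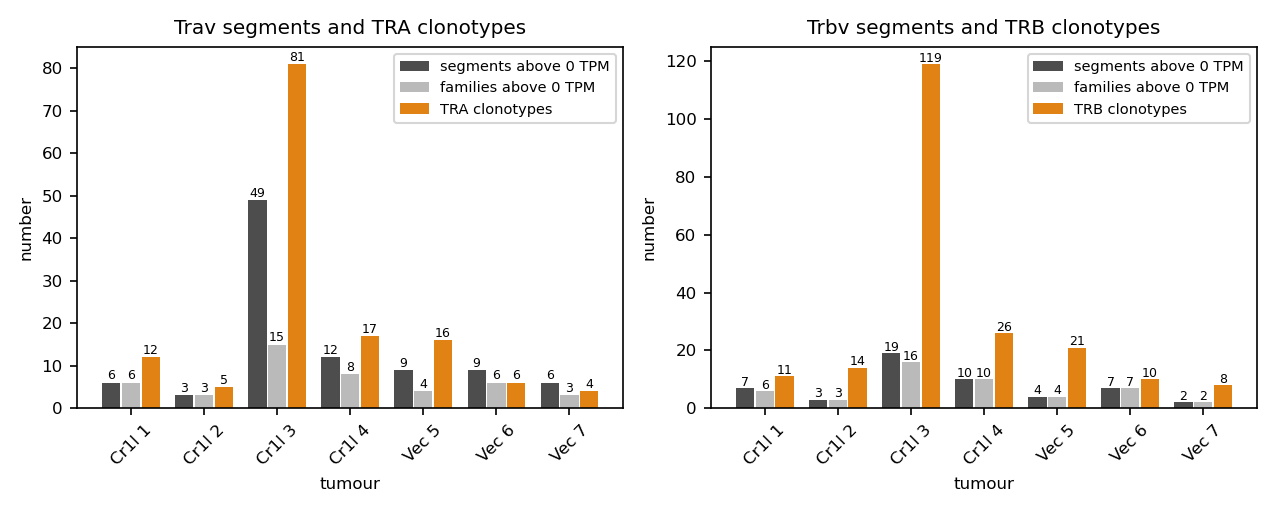
Number of Trav segments, Trav families and TRA clonotypes (left) and of Trbv segments, Trbv families and TRB clonotypes (right) in each tumour, with the number above each bar. Cr1l 3 has the tallest bars of every kind, and TRB clonotypes outnumber Trbv segments in all 7 tumours.

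Set beside the segments, TRB clonotypes outnumbered Trbv segments in all 7 tumours. Cr1l 3 had 119 TRB clonotypes and 19 Trbv segments, Cr1l 2 had 14 and 3, Vec 5 had 21 and 4, and Vec 7 had 8 and 2. For the alpha chain the order was mixed: Vec 6 had 6 TRA clonotypes and 9 Trav segments, and Vec 7 had 4 and 6. The copies of the alpha segments count as separate Trav members here, and their part in this order was not tested.

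TRA clones numbered 20, 10, 199 and 46 across the Cr1l tumours, against 25, 13 and 5 across the Vec tumours, and TRB clones 19, 28, 274 and 81 and 35, 25 and 17. Clones per clonotype were 1.67, 2, 2.46 and 2.71 for TRA across Cr1l 1 to Cr1l 4, against 1.56, 2.17 and 1.25 across Vec 5 to Vec 7. For TRB they were 1.73, 2, 2.3 and 3.12 and 1.67, 2.5 and 2.12. Cr1l 4 had the highest ratio for both chains, although Cr1l 3 had more clones. What was counted as a clone is not stated, so the ratio is not read as repetition of a receptor among cells. The log2 differences in clones were 1.57 for TRA (exact permutation p = 0.286) and 1.23 for TRB (exact permutation p = 0.314), each with an adjusted p of 0.495. Without Cr1l 3 they were 0.77 and 0.50.

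Clonality in the table equals 1 minus the entropy divided by the log2 of the number of clonotypes, so that 0 is perfectly even. For TRB it was 0.0385, 0.0930, 0.0601 and 0.176 across Cr1l 1 to Cr1l 4, against 0.0453, 0.123 and 0.115 across Vec 5 to Vec 7. Cr1l 4 was the least even, and the groups overlapped (difference -0.00266, exact permutation p = 0.886, adjusted p = 0.886). The largest share of 1 segment in the Trbv TPM followed another order. It was 34.2%, 46.9%, 11.5% and 32.7% across Cr1l 1 to Cr1l 4, against 37.1%, 30.8% and 75.8% across Vec 5 to Vec 7. TRA clonality was 0.0281, 0.119, 0.0517 and 0.118 and 0.0466, 0.0671 and 0.0390 (difference 0.0283, exact permutation p = 0.371, adjusted p = 0.495). The tumours with few clonotypes give clonality from as few as 4 of them, and the direction for TRB turned in 4 of the 7 fits that left out a tumour.

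Across the 7 tumours, the Trav sum and TRA clones ran together on log2 scales (Pearson's r = 0.972, exact permutation p = 0.000595, adjusted p = 0.00119; Spearman's rho = 0.964, exact permutation p = 0.00278, adjusted p = 0.00556). Without Cr1l 2 and Cr1l 3, the tumours farthest from the median, r was 0.984 (n = 5, exact permutation p = 0.00833). For the Trbv sum and TRB clones r was 0.899 (exact permutation p = 0.00694, adjusted p = 0.00694) and rho 0.714 (exact permutation p = 0.0881, adjusted p = 0.0881). Without Cr1l 3 and Vec 7, r was 0.693 (n = 5, exact permutation p = 0.217), so the beta relation did not pass a test once those tumours were left out, with fewer tumours to show it. That check kept Cr1l 4, which also stood apart in TRB clones (81). In Cr1l 1, Cr1l 2, Vec 5, Vec 6 and Vec 7, Trbv sums of 6.38, 2.39, 4.29, 7.28 and 0.99 TPM went with 19, 28, 35, 25 and 17 clones. The alpha and the beta relation were the 2 relations computed, and both readouts come from the same libraries.

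**Figure D5:**
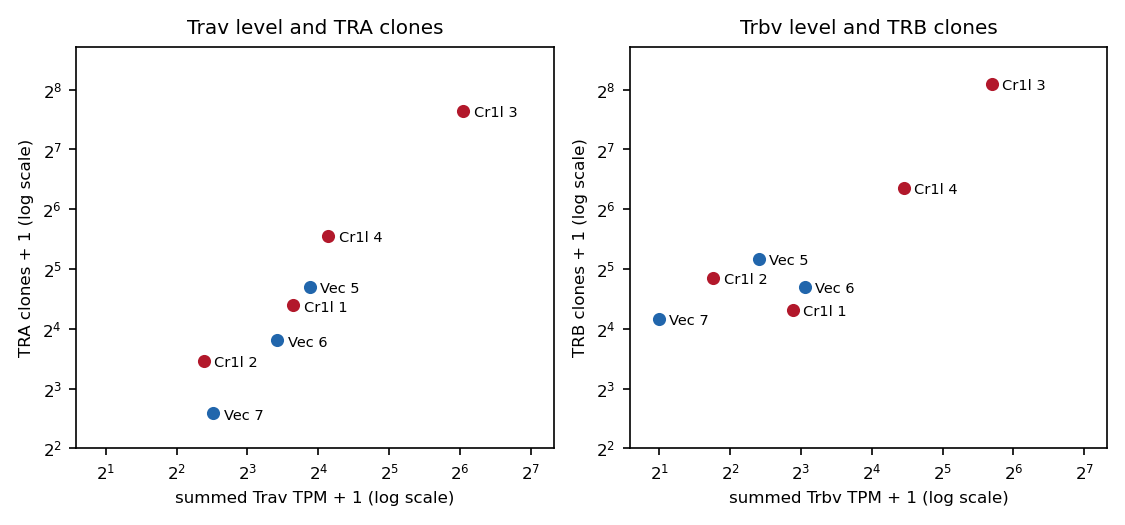
Summed Trav TPM against TRA clones (left) and summed Trbv TPM against TRB clones (right), with 1 added to each value and both axes on a log scale, and a labelled point per tumour (red, Cr1l; blue, Vec). The alpha points lie near a line (r = 0.972), while in the beta panel Cr1l 3 and Cr1l 4 stand apart from 5 tumours with 17 to 35 clones.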

How the data were processed

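RNA was measured in 7 tumours, grouped by the sample labels as Cr1l (4) and Vec (3). The tumour numbers 1 to 7 pair nothing across groups. Per the labels' protocols, poly(A) RNA went into non-directional libraries. The authors used RSEM and DESeq2 on mm39, per the submitters' processing notes; versions, aligner and annotation are unknown. In the deposited table of expression, the authors gave log2(TPM + 1) by gene symbol; as TPM the values sum to 993520 to 996031 per tumour. TPM keeps no depth, so the number of reads is unknown and no counting interval is given. Another deposited table is the authors' own comparison, whose columns are, per the file headers, the mean of normalized counts (a count-scale signal), the log2 fold change and raw and adjusted p-values. The deposited repertoire table, named for MiXCR, gives counts of clonotypes and clones with entropy and clonality as scores of evenness, not scaled to depth.

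The test across genes ran on log2(TPM + 1) for genes that averaged 1 TPM or more, with limma 3.58.1 (R 4.3.3) with a trend, group as the only term, two-sided, and Benjamini-Hochberg adjustment over all genes tested, with a threshold of 0.05. The test was tried on simulated data. Values per tumour were compared by an exact permutation test of the difference in means over the 35 splits, in Python 3.11.15 with numpy 2.4.6, pandas 2.3.3 and scipy 1.17.1, and adjusted within each family of measures. Figures used matplotlib 3.10.9. Coding sequences and chromosomes came from GENCODE M21 (GRCm38); since the authors' build differs, no coordinates are printed. The members, gene lists and tests were chosen with earlier results of these data known. Segments named are those with the highest means of a class (4 for Trav and Trbv, 2 for Trdv and Trgv), the largest share in a tumour, the smallest limma p, or a place in invariant or skin-resident receptors. Trdv5, Trgv1 and the Trav13, Trav4, Trav6 and Trav7 examples beyond these were chosen after their values were seen.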

Additional observations from a re-analysis of the deposited data

Results flagged for a closer look

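In 11 of 45 sets of 4 Cr1l values, 1 tumour lay farther from the other 3 than Dixon's criterion for 4 samples allows, and in 9 of the 11 that tumour was Cr1l 3. In 7 of the 11, the other 3 tumours were all at 0, where a lone value above 0 passes the criterion by construction. Chance flags about 1 in 20 groups of normally spread values, a rate that does not hold for sets made mostly of zeros. Trav7d-3 and Trav10 were named at least in part because they led in the tumour that stood apart. Trav7-2, Trav7d-3 and Trgv4 were named in part for a high mean, and each was highest in Cr1l 3. The sets also share their tumours, so the number of them is only a description. Cr1l 3 stood apart in the summed Trgv level (5.21 TPM, against 0, 0 and 0.7 TPM), in TRA clonotypes (81, against 12, 5 and 17) and in TRB clonotypes (119, against 11, 14 and 26). Among single segments it stood apart in Trav7-2 (5.26 TPM), Trbv12-1 (3.51 TPM), Trbv13-2 (3.34 TPM), Trgv4 (1.9 TPM) and Trav12-1 (0.41 TPM), each at 0 in the other 3 Cr1l tumours, and in Trav7d-3 (5.87 TPM, with 0.91 TPM in Cr1l 4). Cr1l 4 stood apart in Trav10 (2.94 TPM) and Trav1 (2.41 TPM), both at 0 in the other 3. Groups of 3, and so the Vec tumours, were not examined in this way.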

How the results depend on the processing

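Across the alternatives run for the group comparisons, 0 results crossed the threshold: limma called 0 members in every fit, and no class sum, breadth, evenness or repertoire measure reached an adjusted p of 0.05. Without Vec 6 and Vec 7 only 5 splits exist, and p cannot go below 0.2. Of the alternative values of the class and repertoire differences, 176 kept their direction, 14 turned it and 2 were 0 (number of Trgv segments). For single segments 115 kept it and 5 turned it. Leaving out each tumour in turn, the Cr1l minus Vec differences ranged as follows on the log2 scale: Trav sum 0.12 to 1.34, Trbv sum 0.88 to 2.19, Trdv sum 0.58 to 1.08, Trgv sum -0.27 to 0.85, and Trav7d-3 -0.33 to 0.93. Numbers of segments ranged from -1 to 14.3 for Trav, -0.333 to 1 for Trgv and 1.67 to 23.7 for all members, the effective number of Trav segments from -0.127 to 9.93, and TRB clonality from -0.0307 to 0.0152. Of 27 results with such a range, 20 had their lowest value without Cr1l 3 and 13 their highest without Cr1l 2. Other alternatives that turned a direction were few. Relative to the mean of Cd3d, Cd3e and Cd3g, the Trgv sum differed by -0.16, and the Trav, Trbv and Trdv sums by 0.30, 1.06 and 0.35. Counting only segments of at least 0.5 TPM, the number of Trdv segments differed by -0.167. Without Vec 6 and Vec 7, the differences were -0.72 for the Trgv sum, -1 for the number of Trgv segments, -0.0270 for TRA entropy, 0.0467 for TRB clonality, -1.01 for Trav7d-3 and -0.0198 for Trbv15. The cause of these turns was not tested. Counting families in place of segments gave a difference of 3.67 for Trav (9.5 by segment). Counting identical copies as 1 segment, an alternative chosen after seeing the data, gave 8.58 for Trav and 15.2 for all members. No paired analysis was possible because the groups share no tumour number.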
